A study of Homo sapiens with 6 samples.

Results

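Eph receptors and ephrins were examined in MDA-MB-231 cells after silencing of the mitotic kinase NEK2. The set held 5 receptors (EPHA2, EPHA4, EPHB2, EPHB3 and EPHB4) and 5 ephrins (EFNA1, EFNA4, EFNA5, EFNB1 and EFNB2). They were chosen by name, with earlier results of these data known, and found by gene symbol among the 74852 entries of the deposited expression table. All 10 were found and all 10 were expressed above the filter, set at an average of 10 normalized counts, that left 18717 genes for testing. The lowest group mean among them was 83.6 normalized counts. MDA-MB-231 is a human triple-negative breast cancer (TNBC) cell line of mesenchymal phenotype. Cells received either non-targeting control siRNAs (si-CTRL) or pooled siRNAs that target NEK2 (si-NEK2) in 2 rounds of lipofection, and were harvested 24 h after the last round according to the sample records, while the methods of the study give a later time. PolyA-enriched RNA was sequenced from 3 libraries per group. All samples came from 1 cell line and 1 siRNA pool per group, so that loss of NEK2 and other actions of the pool cannot be told apart. The methods of the study state that cells were harvested in triplicate. Whether the triplicates were independent experiments and whether both groups were prepared together is not given in the sources used here, so that the p-values measure the spread between these libraries, which may be technical.

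Eph receptors form the largest family of receptor tyrosine kinases, and their ligands, the ephrins, are themselves tethered to the membrane of the neighbouring cell. A-type ephrins are anchored by a glycosylphosphatidylinositol lipid and mainly engage EphA receptors, whereas B-type ephrins span the membrane and mainly engage EphB receptors. Contact between cells triggers forward signalling in the cell that bears the receptor and reverse signalling in the cell that bears the ephrin, and the outcome ranges from adhesion to repulsion through Src family kinases, the actin cytoskeleton and PDZ domain proteins. In breast epithelium and in breast tumours this system is known for its part in cell sorting, boundary formation and migration, and EPHA2 is known to be abundant in many basal-like and mesenchymal breast cancer lines.

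Levels are given as normalized counts, that is reads on a gene after division by the size factor that DESeq2 assigned to a library. The libraries held from 52625492 to 87454509 reads assigned to genes, and 1 read was worth from 0.818 to 1.25 normalized counts. NEK2 stood at 3702, 3323 and 3290 normalized counts in si-CTRL and at 284, 362 and 388 in si-NEK2, a log2 fold change of -3.32 (limma, Benjamini-Hochberg adjusted p = 1.86e-06). Mesenchymal markers were abundant in every library (summed 413021 to 511786 normalized counts in si-CTRL and 399780 to 434234 in si-NEK2), but 3 of the 6 were regulated, ZEB1 (log2 -0.82) and CD44 (log2 -0.76) lower and CDH2 (log2 0.66) higher, while VIM, FN1 and AXL were not. In contrast, CDH1, EPCAM, ESRP1 and GRHL2 stayed below a mean of 10 normalized counts, although the keratins KRT8 and KRT18 were abundant. ESR1 and PGR were also below a mean of 10, and ERBB2, whose entry is shared with MIR4728, stood at 2822 ± 544 and 4020 ± 80.8. The library si-CTRL 1 stood apart from its group, with a chi-square per gene of 75.8 and 80.2 against the other si-CTRL libraries, compared with 9.11 to 26.6 among the remaining pairs of a group. Markers of endothelial cells summed to 49.4 to 76.2 normalized counts in si-CTRL and 28.9 to 39.5 in si-NEK2, with KDR at 0 in all libraries and 1 of the 3 tested markers (CDH5) lower in si-NEK2. Fibroblast markers summed to 696 to 800 and 865 to 903, mostly PDGFRB, with DCN and LUM near 0 and COL3A1 higher in si-NEK2, and leukocyte markers to 5.0 to 13.6 and 6.4 to 27.0. The part of these markers in the results below was not tested. In bulk RNA, fewer cells that express a gene and less of its RNA per cell cannot be told apart.

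After NEK2 silencing the family moved in both directions. EPHA4, EFNA1 and EFNB2 rose, EPHB2 and EFNA5 fell, and the other 5 members did not pass the thresholds. A gene was called regulated when limma gave a p-value of 0.05 or less and its level differed by 1.5-fold or more. By this rule 5 of the 10 members were regulated, 3 higher and 2 lower, while 22.5% of all 18717 genes were regulated, 8.23% higher and 14.3% lower. Scaling the libraries to equal totals moved the median of all genes from 0.01 to -0.11 and the split of all calls from 1541 higher and 2672 lower to 942 and 3474. With no limit on the fold, 7 of 10 members had an adjusted p of 0.05 or less, against 43.1% of all genes. The libraries of the 2 groups did not overlap for 9 of 10 members, against 55.0% of all genes, EPHB4 being the exception. The members were chosen with earlier results of these data known, so that these contrasts only describe the set. They were also well above the filter, whereas all genes include those averaging as little as 10 normalized counts. The median log2 fold change of the members was -0.11, that of all genes tested 0.01, and no change reached 2-fold. Without si-CTRL 1, the same 5 members were regulated, with log2 fold changes of 0.88 for EPHA4, 0.72 for EFNB2, 0.60 for EFNA1, -0.66 for EPHB2 and -0.82 for EFNA5.

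**Figure D1:**
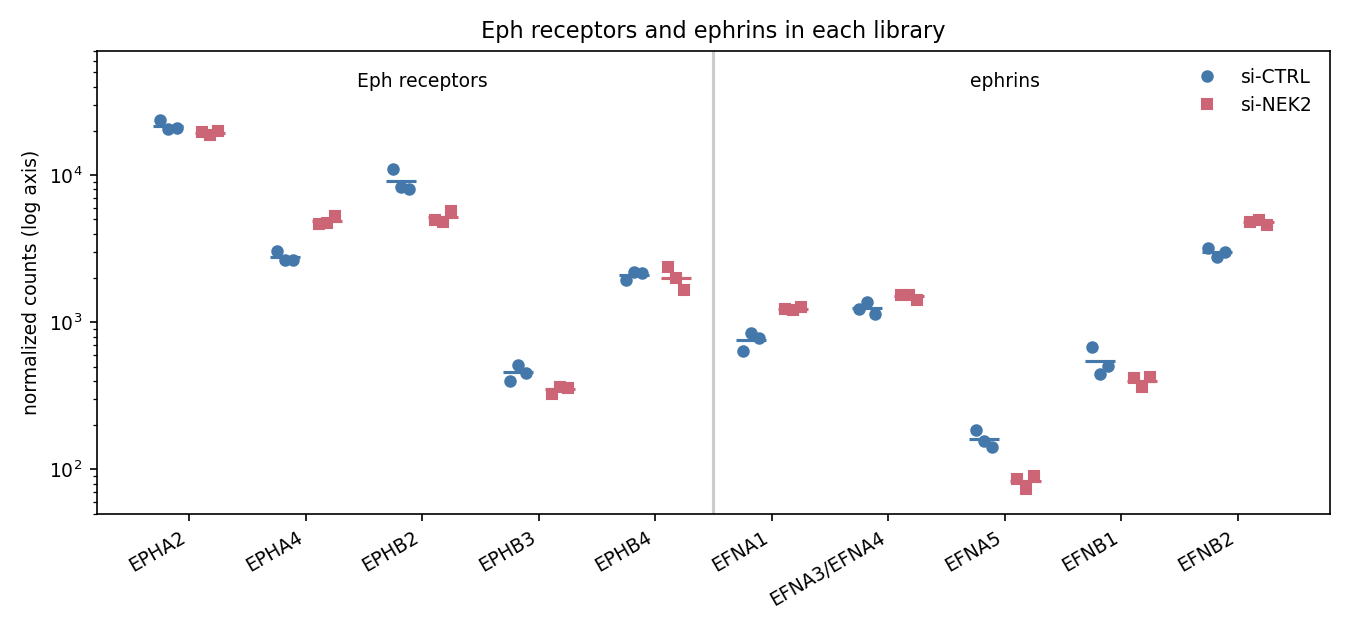
Normalized counts (log axis) of the 5 Eph receptors and 5 ephrins in each si-CTRL library (circles) and si-NEK2 library (squares), with a bar at the mean of each group. EPHA2 was the highest member at 18589 to 23647, EPHA4, EFNA1 and EFNB2 were higher and EPHB2 and EFNA5 lower in si-NEK2, and only EPHB4 overlapped between groups.

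EPHA4 is a receptor that binds ephrins of both the A and the B type. Its entry (GSHG0018369, hg19 chr2:222282749-222438922) held 3067, 2644 and 2640 normalized counts in si-CTRL and 4632, 4747 and 5266 in si-NEK2. The lowest si-NEK2 library was well above the highest si-CTRL library. The mean went from 2784 ± 245 to 4882 ± 338 (SD, n = 3), a log2 fold change of 0.81 (SE 0.09, 95% confidence interval 0.62 to 1.01; limma, Benjamini-Hochberg adjusted p = 0.000151). EPHB2, a receptor for B-type ephrins that also binds EFNA5, moved the other way. Its entry (GSHG0000234, hg19 chr1:23037331-23247985) held 11080, 8267 and 8002 normalized counts in si-CTRL and 4971, 4807 and 5718 in si-NEK2. All si-NEK2 libraries were below all si-CTRL libraries, and si-CTRL 1 was the highest of them. The mean went from 9116 ± 1706 to 5165 ± 485, a log2 fold change of -0.81 (SE 0.13, interval -1.10 to -0.52; limma, Benjamini-Hochberg adjusted p = 0.00112). The 150 bases before the start held 51.3% G and C for EPHA4 and 86% for EPHB2. Of the other regulated members, EFNA1 (81.3%) and EFNB2 (78.7%) rose and EFNA5 (81.3%) fell. A link between base composition and direction was not tested. The promoters of EPHA4 and EPHB2 are shown 5′ to 3′ along the gene, from RefSeq on GRCh38.p14. That of EPHA4 is at chr2:221574203-221574352 on the minus strand and that of EPHB2 at chr1:22710688-22710837 on the plus strand. RefSeq lists 2 starts for each of these genes, of which 1 was used, and capitals mark the GC box GGGCGG read on either strand.
EPHA4: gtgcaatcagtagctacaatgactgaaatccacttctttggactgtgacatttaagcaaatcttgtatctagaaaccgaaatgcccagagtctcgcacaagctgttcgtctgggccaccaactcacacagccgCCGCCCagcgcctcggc
EPHB2: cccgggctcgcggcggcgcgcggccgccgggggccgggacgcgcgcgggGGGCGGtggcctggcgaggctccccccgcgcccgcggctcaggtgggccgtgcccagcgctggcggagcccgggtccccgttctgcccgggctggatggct

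EPHA2, the principal receptor of EFNA1, was the most abundant member. Its entry (GSHG0001779) held 23647, 20484 and 21028 normalized counts in si-CTRL and 19662, 18589 and 19966 in si-NEK2. The groups did not overlap, si-CTRL 1 being the highest library. The log2 fold change was -0.16 (interval -0.32 to 0.00; limma, Benjamini-Hochberg adjusted p = 0.106) and did not pass the test. EPHB3, a receptor for B-type ephrins best known from the sorting of cells in the intestinal crypt, held 400, 513 and 455 normalized counts in si-CTRL and 328, 362 and 358 in si-NEK2. Its log2 fold change of -0.38 (interval -0.64 to -0.11; limma, Benjamini-Hochberg adjusted p = 0.0289) was below the required 1.5-fold. EPHB4, the receptor that pairs with EFNB2 between arteries and veins, held 1931, 2210 and 2147 normalized counts in si-CTRL and 2372, 2008 and 1664 in si-NEK2. Its si-NEK2 libraries spread to both sides of the si-CTRL libraries. The log2 fold change of -0.07 (interval -0.35 to 0.21; limma, Benjamini-Hochberg adjusted p = 0.685) became 0.06 when si-NEK2 3 was left out, so that no direction can be given. Of the 5 receptors, 1 rose, 1 fell and 3 did not pass, beside 8.23% higher and 14.3% lower of all genes.

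Among the ephrins, EFNB2, a transmembrane ligand of EPHB4 and other EphB receptors, rose. Its entry (GSHG0008628) held 3192, 2786 and 3024 normalized counts in si-CTRL and 4827, 4924 and 4595 in si-NEK2. The libraries were tightly grouped and far apart between groups. The mean went from 3001 ± 204 to 4782 ± 169 (SD, n = 3), a log2 fold change of 0.67 (SE 0.07, interval 0.51 to 0.84; limma, Benjamini-Hochberg adjusted p = 0.000175). The call was lost when the libraries were scaled to equal totals, where the value was 0.55. EFNA1, the lipid-anchored ligand of EPHA2, rose as well. Its entry (GSHG0001017, hg19 chr1:155099936-155107384) held 636, 848 and 782 normalized counts in si-CTRL and 1223, 1213 and 1266 in si-NEK2. The si-NEK2 libraries lay within a narrow band above every si-CTRL library, of which si-CTRL 1 was the lowest. The mean went from 756 ± 109 to 1234 ± 28.4, a log2 fold change of 0.72 (SE 0.11, interval 0.46 to 0.97; limma, Benjamini-Hochberg adjusted p = 0.00105). EFNA5, a lipid-anchored ephrin known from the guidance of axons, was the rarest member and fell. Its entry (GSHG0024983) held 185, 155 and 142 normalized counts in si-CTRL and 85.9, 74.1 and 90.7 in si-NEK2, and at its lowest rested on 82 reads in a library. The mean went from 161 ± 22.2 to 83.6 ± 8.54, a log2 fold change of -0.93 (SE 0.16, interval -1.29 to -0.57; limma, Benjamini-Hochberg adjusted p = 0.00182). The promoters of the 3 regulated ephrins are shown in the same way, EFNA1 at chr1:155127726-155127875 on the plus strand, EFNB2 at chr13:106535663-106535812 and EFNA5 at chr5:107670938-107671087 on the minus strand. Capitals mark GC boxes and, in EFNB2, also CCAAT and the TATA box TATAAA, which is read there on the opposite strand.
EFNA1: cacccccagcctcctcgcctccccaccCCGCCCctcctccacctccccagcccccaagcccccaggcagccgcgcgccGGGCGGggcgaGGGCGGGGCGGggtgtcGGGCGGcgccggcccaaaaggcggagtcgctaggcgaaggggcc
EFNB2: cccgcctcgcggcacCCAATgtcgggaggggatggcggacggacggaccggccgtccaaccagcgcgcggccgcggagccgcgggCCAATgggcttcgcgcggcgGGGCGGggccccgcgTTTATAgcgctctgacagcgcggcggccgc
EFNA5: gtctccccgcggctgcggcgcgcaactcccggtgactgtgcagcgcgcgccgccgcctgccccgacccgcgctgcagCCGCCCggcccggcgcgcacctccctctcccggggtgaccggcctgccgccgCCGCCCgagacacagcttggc

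The remaining ephrins did not pass the thresholds. EFNB1, a transmembrane ligand of EphB receptors, held 679, 445 and 503 normalized counts in si-CTRL and 416, 364 and 426 in si-NEK2. The groups were separate, but si-CTRL 1 was far above the others of its group. Its log2 fold change of -0.41 (interval -0.77 to -0.06; limma, Benjamini-Hochberg adjusted p = 0.0616) shrank to -0.24 without that library. EFNA4 shares 1 entry with its neighbour EFNA3, so that the reads of these lipid-anchored ephrins could not be separated. The joint entry held 1231, 1380 and 1137 normalized counts in si-CTRL and 1541, 1533 and 1428 in si-NEK2. Its log2 fold change was 0.27 (interval 0.06 to 0.47; limma, Benjamini-Hochberg adjusted p = 0.0399), below 1.5-fold. Of the 5 ephrins, 2 rose, 1 fell and 2 did not pass, beside the same 8.23% higher and 14.3% lower of all genes.

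The remaining genes of the family added EPHB1 and EPHB6 to those regulated. Of 14 Eph receptors listed, 8 were tested, of which 1 was higher and 3 were lower, and 7 ephrins, including the joint entry, gave 2 higher and 1 lower, beside 8.23% higher and 14.3% lower of all genes. EPHB1, another receptor for B-type ephrins, fell from 3194 ± 408 to 1881 ± 219 normalized counts, a log2 fold change of -0.76 (SE 0.11; limma, Benjamini-Hochberg adjusted p = 0.000884). EPHB6, a family member without kinase activity, fell from 139 ± 23.0 to 81.4 ± 8.32, a log2 fold change of -0.76 (SE 0.17; limma, Benjamini-Hochberg adjusted p = 0.0067), but was not called after quantile normalization, where the value was -0.54. EPHA5, EFNA2 and EFNB3 changed by log2 values of 0.07, 0.19 and -0.01 and did not pass. EPHA1, EPHA3, EPHA6, EPHA7, EPHA8 and EPHA10 were below the filter. EPHA1 held 7.5, 9.69 and 9.51 normalized counts in si-CTRL and 0, 3.61 and 0 in si-NEK2, at most 10 reads in a library, and EPHA6 was at 0 in all libraries.

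**Figure D2:**
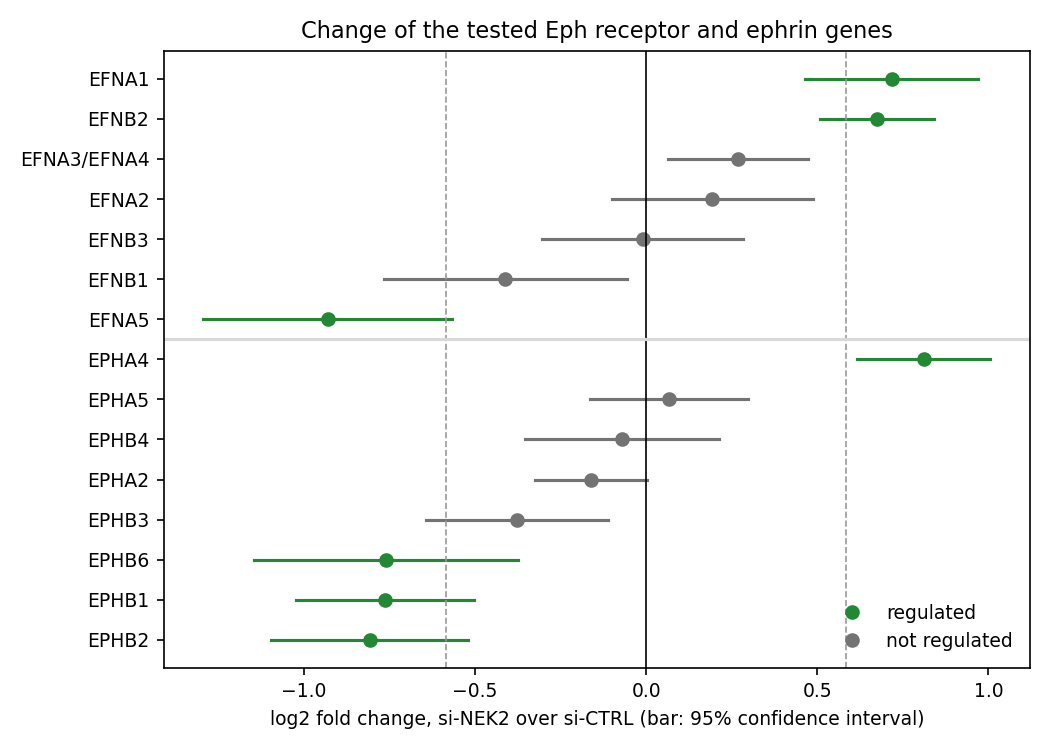
Log2 fold change of si-NEK2 over si-CTRL for the 15 tested Eph receptor and ephrin entries, with bars for the 95% confidence interval of limma, green for regulated genes and dashed lines at a 1.5-fold change. EPHA4 at 0.81 was the only regulated receptor on the right, EPHB1, EPHB2 and EPHB6 lay on the left between -0.81 and -0.76, and the ephrins ran from EFNA1 at 0.72 to EFNA5 at -0.93.

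Levels of different genes were compared as normalized counts per kilobase of annotated exon. The joint entry of EFNA3 and EFNA4 was divided by the summed length of both genes, so that it gives their average and not their sum. EPHA2 led the receptors in both groups, with 5479 ± 427 counts per kilobase in si-CTRL and 4896 ± 183 in si-NEK2, several times the next receptor. In si-CTRL it was followed by EPHB2 at 753, EPHB1 at 631, EPHB4 at 482, EPHA4 at 421, EPHB3 at 108, EPHA5 at 79.9 and EPHB6 at 34.7. The libraries of EPHB2 and EPHB1 overlapped in this order, as did those of EPHB4 and EPHA4, whereas the other neighbours were separate. In si-NEK2 the order behind EPHA2 was EPHA4 at 738, EPHB4 at 463, EPHB2 at 427, EPHB1 at 372, EPHA5 at 83.4, EPHB3 at 82.5 and EPHB6 at 20.3. EPHA4 thus moved from the fifth to the second place, clear of EPHB4, while EPHB4, EPHB2 and EPHB1 overlapped with their neighbours, and so did EPHA5 and EPHB3. Part of this order depended on the length used. With the longest transcript, EPHB3 and EPHA5 overlapped in si-CTRL and were separate in si-NEK2. In si-NEK2 EPHB2 at 478 then stood above EPHB4 at 465. Among the ephrins EFNB2 led in both groups, at 599 and 955 counts per kilobase. It was followed in si-CTRL by the joint entry of EFNA3 and EFNA4 at 410, EFNA1 at 392 and EFNA2 at 370, which overlapped with their neighbours. In si-NEK2 EFNA1 at 641 stood apart above the joint entry at 493 and EFNA2 at 425. EFNB1 at 164 and 121, EFNB3 at 83.0 and 82.0 and EFNA5 at 30.1 and 15.7 kept the last places.

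As shares of each class, which do not depend on a single scaling factor per library, the receptors differed in composition between the groups. EPHA2 made up 68.6% ± 0.347 of the receptor counts per kilobase in si-CTRL and 69.1% ± 0.363 in si-NEK2 (SD, n = 3), with overlapping libraries. With the length of the longest transcript in place of all exons, its share was 66.8% to 67.6% and 67.6% to 68.3%, without overlap by a narrow margin. EPHA4 went from 5.26% ± 0.0664 to 10.4% ± 0.557 and EPHB2 from 9.37% ± 0.993 to 6.02% ± 0.395, both without overlap. The 5 tested EphB receptors together made up 25.1% ± 0.207 in si-CTRL and 19.3% ± 0.311 in si-NEK2, with the libraries of a group within 1 percentage point of each other. Among the ephrins the share of EFNB2 was 29.3% ± 2.38 and 34.9% ± 0.391, and that of EFNA1 19.2% ± 2.83 and 23.5% ± 1.34. That of EFNB1 was 7.99% ± 1.76 and 4.45% ± 0.472, and none of these shares overlapped between groups. Shares of a class are coupled, so that a share also falls when other genes of the class rise. The level of EFNB1 itself changed by log2 -0.41 and did not pass. The A-type ephrins as a whole took 55.7% to 62.5% in si-CTRL and 57.1% to 57.9% in si-NEK2, so that the balance between ephrin types did not differ beyond the spread of si-CTRL. This share and the ephrin sum below treat the joint entry as a single gene at average level, so that both can be understated. Summed over a class, the receptors held 8724, 7560 and 7692 counts per kilobase in si-CTRL and 7135, 6814 and 7297 in si-NEK2, and the ephrins 2075, 2097 and 1973 against 2788, 2781 and 2627. The ephrin sum was higher in every si-NEK2 library and the receptor sum lower, si-CTRL 1 being the highest of all.

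**Figure D3:**
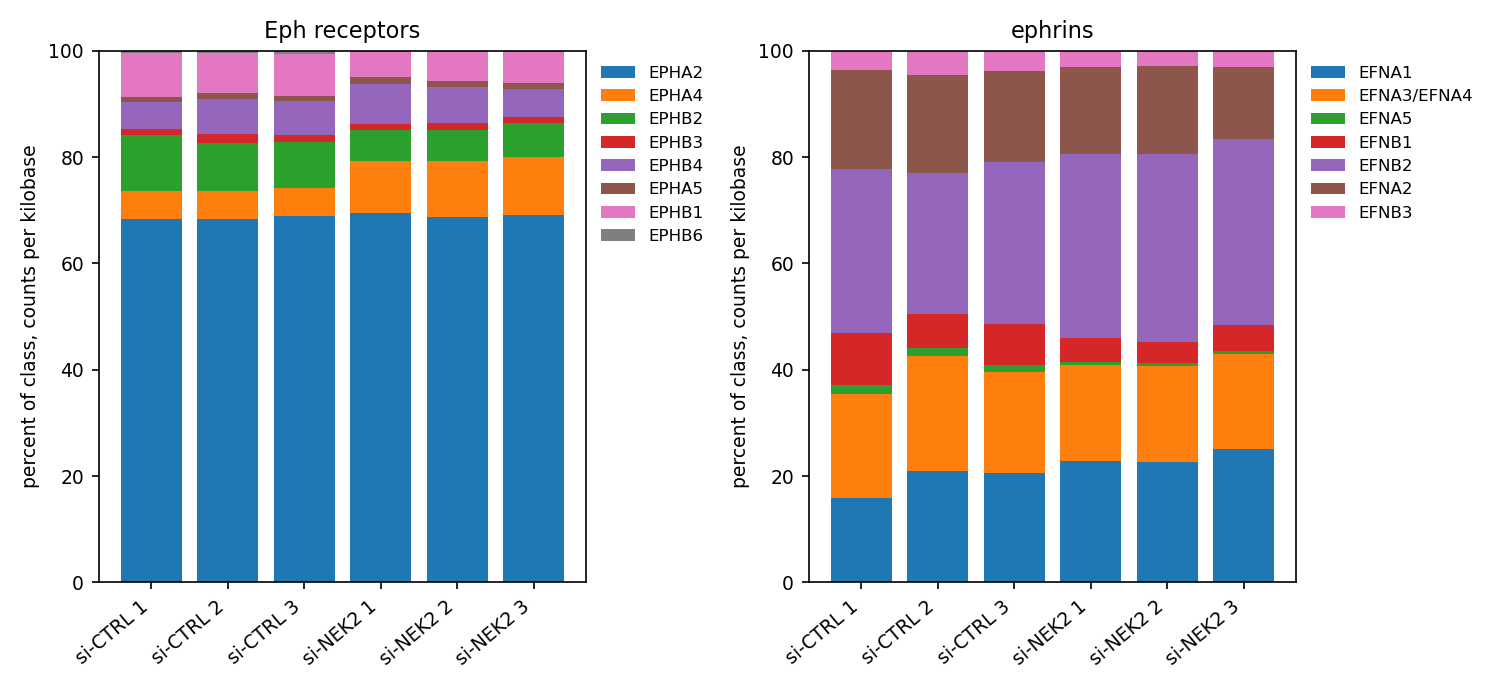
Share of each tested gene in the counts per kilobase of its class, in percent, for the 3 si-CTRL and 3 si-NEK2 libraries, receptors on the left and ephrins on the right. EPHA2 filled between 68.4% and 69.5% of the receptor bar in every library, EPHA4 widened from about 5.26% to 10.4% and EPHB2 and EPHB1 narrowed, while EFNB2 was the largest ephrin throughout.

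Ratios of RNA levels within a library were taken for ligands and receptors that are known to pair. They were also taken for members with log2 fold changes of opposite sign. Protein was not measured in these data. Per kilobase, EFNA1 stood at 0.0554 to 0.0852 of EPHA2 in si-CTRL and at 0.128 to 0.134 in si-NEK2, a 1.84-fold difference. EFNB2 stood at 1.10 to 1.44 of EPHB4 in si-CTRL and at 1.77 to 2.4 in si-NEK2, a 1.67-fold difference. Between the receptors that moved in opposite directions, EPHA4 over EPHB2 went from 0.506 to 0.604 in si-CTRL to 1.69 to 1.81 in si-NEK2, a 3.07-fold difference. Between transmembrane ligands, EFNB2 over EFNB1 stood at 3.11 to 4.15 in si-CTRL and 7.14 to 8.95 in si-NEK2, a 2.12-fold difference. Only EFNB2 of this pair was regulated, as the log2 fold change of -0.41 for EFNB1 did not pass. EFNB3, the remaining B-type ephrin, changed by log2 -0.01. None of these ratios overlapped between groups, and they were chosen after the values of the single genes had been seen.

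Genes that act downstream were read from 4 lists, of which those of adaptors and kinases, of proteins of reverse signalling, and of phosphatases and proteases that act on the family are described in turn. Of 54 genes 51 were tested, of which 6 were higher, 3 were lower and 42 did not pass, so that 17.6% were regulated, against 22.5% of all genes, with a median log2 fold change of 0.11 against 0.01. The split of 6 higher and 3 lower depended on scaling, with 4 and 4 after upper quartile and 3 and 6 after equal total scaling, and was 5 and 4 without si-CTRL 1. An adjusted p of 0.05 or less was reached by 29 of the 51 genes, against 43.1% of all. Of the 18 adaptors and kinases, 11.1% against 22.5% of all genes were regulated. CRKL, an adaptor of the Crk family, rose from 2802 ± 100.9 to 4489 ± 147 normalized counts (log2 0.68, but 0.55 and not called with equal totals), and FYN, a Src family kinase, fell from 1964 ± 32.8 to 1268 ± 92.2 (log2 -0.63). The other 16 were not called, with log2 values from -0.57 for GRB7 to 0.48 for YES1.

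Of the 8 genes of reverse signalling, 2 rose and 1 fell, which is 37.5% of the list against 22.5% of all genes. PARD6A, the polarity protein that EFNB1 is known to bind, went from 63.7, 68.8 and 73.2 normalized counts in si-CTRL to 258, 219 and 193 in si-NEK2, a log2 fold change of 1.68 (SE 0.15; limma, Benjamini-Hochberg adjusted p = 7.53e-05). SDCBP (syntenin), a PDZ domain protein that binds the tail of B-type ephrins, went from 11403 ± 306 to 20148 ± 507, a log2 fold change of 0.82 (SE 0.06; limma, Benjamini-Hochberg adjusted p = 2.28e-05). PDZD2, another protein with PDZ domains, fell from 1540 ± 110 to 856 ± 18.5 (log2 -0.84). The other 5 were not called, with log2 values from -0.57 for RGS3 to 0.28 for GRIP1. Of the 11 phosphatases and proteases, 2 rose, among them ADAM10, and 0 fell, which is 18.2% against the same 22.5%. ADAM10, the protease that sheds ephrins on contact with their receptors, went from 6315 ± 149 to 9588 ± 361 (log2 0.60). It lay at the 1.5-fold limit, and 5 of 18 alternative settings left it below.

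**Figure D4:**
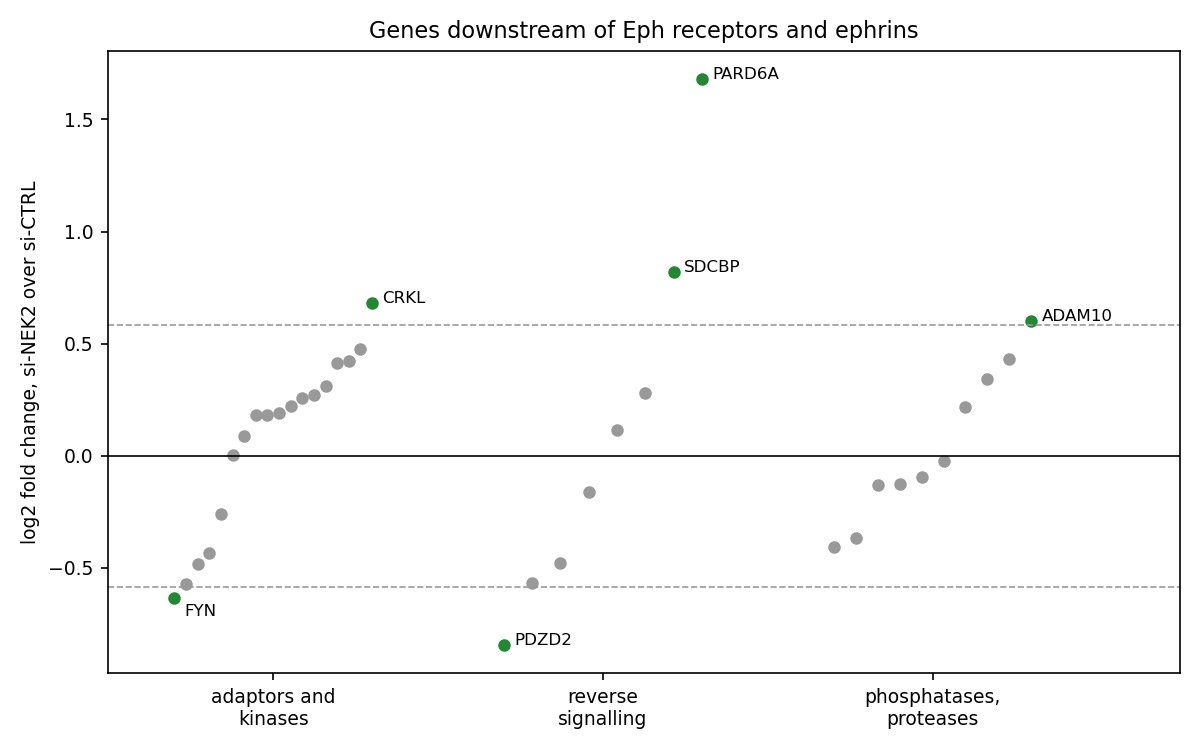
Log2 fold change of si-NEK2 over si-CTRL for tested downstream genes of 3 lists, each point a gene, sorted within its list, green and labelled where regulated, with dashed lines at a 1.5-fold change. PARD6A at 1.68 and PDZD2 at -0.84 were the extremes, and most genes lay between the dashed lines.

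Short motifs were searched on both strands of the 150 bases before the start of the 10 members and of all 27305 RefSeq genes in the promoter table. The GC box GGGCGG, which is bound by SP family factors, was present in 10 of 10 member promoters and in 36.7% of all promoters, whose median G and C content was 59.3%. Member windows ran from 51.3% G and C (EPHA4) to 86% (EPHB2), all but that of EPHA4 above this median. The share among promoters of like content was not computed. As every member held a GC box, its presence could not separate regulated from unregulated members. EFNA1, shown above, held 5 matches, of which a pair overlapped by a base. CCAAT was present before EFNA4, EPHB4, EFNB2 and EFNB1, in 24.4% of all promoters, and TATAAA before EFNB2 alone, in 7.05% of all. GGAATG, the core of the TEAD motif, was found before EPHA2 alone, in 7.09% of all promoters. The AP-1 motif TGANTCA and the E-box CACGTG were in 4.14% and 4.68% of all promoters, and these letters were in no member window.

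EPHA4 had the lowest adjusted p among the members. Over the 6 libraries its log2 values were most like those of NID2, CSTF3 and MKLN1-AS, with Pearson r of 0.999 for each among 13600 named genes. These 3 genes were higher in si-NEK2 by log2 0.77, 0.39 and 0.94. With 3 libraries on each side of a single difference, 2250 genes reached an r of 0.9, so that such a likeness is common here. Several members lie inside the span of another entry of the table. EFNA1 and the joint entry of EFNA3 and EFNA4 lie within the span given for SHC1, EPHB3 within that of EIF2B5, and EPHA2 within those of SPEN and SLC25A34. An unnamed entry overlaps the start of EPHA4, at a mean of 114 normalized counts against 3833 for EPHA4. The library kit marks strand, but the counter and its strand setting are not given in the sources used here, so that reads of overlapping entries may be shared. SHC1 had a log2 fold change of -0.26. In si-CTRL and si-NEK2, EIF2B5 held 4071, 3764 and 4121 against 5057, 5331 and 5202 normalized counts. SPEN held 3170, 2865 and 2279 against 3114, 3199 and 3422. An unnamed entry that overlaps the joint entry held 265, 244 and 199 against 123, 130 and 129. Whether reads were shared with any member was not tested.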

How the data were processed

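PolyA libraries were made with a stranded kit, and the submitters' processing notes name STAR 2.4.0, SAMtools, Picard, FastQC, DESeq2 and the hg19 build. The deposited signal is the reads of a gene after division by a DESeq2 size factor, made by the authors with replicates not pooled. How reads were counted, with or without strand, is not given in the sources used here. Of 74852 entries, 51665 had no symbol. In each library 100% of values were whole multiples of 1 read (tolerance 0.1), which gave the reads. A gene at 0 may have up to 3 reads, counting error only.

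Samples were grouped by the records. Genes averaging 10 or more were fitted by limma 3.58.1 (R 4.3.3) on log2(value + 1), where the added 1 understates changes of rare genes. The fit used an intensity trend, with Benjamini-Hochberg adjustment over 18717 genes. The alternatives tried were other pseudocounts (0.1, 5), filters (none, 50) and scalings (upper quartile, equal total, quantile), a fit with no trend or with a replicate block, omission of each library, edgeR 4.0.16 (TMM) and DESeq2 1.42.0 on the reads, and stricter thresholds. The fits were tested on simulated data with changes of 2-fold or more and no outlying library. Changes below 2-fold and a library such as si-CTRL 1 were therefore not covered.

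Lengths are GENCODE v29 exon unions, summed for EFNA3 and EFNA4. The members and lists were chosen with earlier results of these data known. Named genes are the members, the rest of the family, NEK2, markers, up to 6 regulated downstream genes per direction averaging 50 or more, and the 3 genes most like the member with the lowest adjusted p. Other downstream genes, and the alternatives for genes outside the members, were added after the data were seen. Some downstream genes are counted in the totals but not reported here.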

Additional observations from a re-analysis of the deposited data

How the results depend on the processing

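All 5 regulated members were called under each alternative that kept the 1.5-fold limit, edgeR and DESeq2 included, except equal total scaling, which called 4 and left EFNB2 at 0.55. With a limit of 2-fold, 0 members were regulated in place of 5, 2 downstream genes in place of 9, and 1637 of all genes in place of 4213. EPHA4 ranged from 0.68 to 0.88, EPHB2 from -0.94 to -0.66, EFNA1 from 0.59 to 0.81 and EFNA5 from -1.06 to -0.73. The adjusted p ranged from 0.0113 to 0.313 for EPHA2, from 0.00424 to 0.174 for EPHB3, from 0.0195 to 0.258 for the EFNA3 and EFNA4 entry and from 0.0217 to 0.233 for EFNB1. Genes near 0 changed sign. EPHA5 was -0.061 with equal totals and EFNB3 was 0.15 with quantile normalization. Leaving out 1 library gave -0.19 to 0.061 for EPHB4, -0.025 to 0.13 for EPHA5 and -0.068 to 0.10 for EFNB3. The cause was not tested.

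The replicate block gave 5 members, 9 downstream genes and 4084 genes. Deviations of samples with the same number correlated at -0.09, 0.05 and -0.15, so that the numbers were not taken to pair the samples.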
